A study of Mus musculus with 161 samples.

Results

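The boundary between chrX:103211148 and chrX:103231148 (mm9) separates neighbouring topologically associating domains near the upper end of the X-linked region captured by 5C, a chromosome conformation capture assay that counts ligation products between forward and reverse primers placed on HindIII fragments. Contacts across this 20 kb bin were defined as all forward-reverse primer pairs with one fragment midpoint within 100 kb below the bin and the other within 100 kb above it. The design holds 464 such pairs. Both primers were measured for 83.8% of them, all but 75, and these made up 0.184% of the 211110 measured pairs of the region. They joined 25 fragments below to 31 fragments above, at separations of 33.0 to 215.2 kb (median 126 kb).

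All 91 5C libraries came from male mouse embryonic stem cells of the E14Tg2a background, which carry a single X chromosome. In the transgenic lines both the endogenous CTCF alleles were fused to an auxin-inducible degron (CTCF-AID) in cells that also express Tir1 and the doxycycline-responsive activator Rtta3G, and a dox-inducible TetO-CTCF transgene supplied the CTCF under study. These cells received auxin and dox for 4 days, except for 2 libraries of the full-length line that received auxin alone and are called no dox here. The transgenes were full-length CTCF (14 libraries of line EN133.10), a line of low full-length expression (2), Del_1-265 (clone 1, 6 libraries, and clone 2, 4), Del_1-88, 89-178, 179-265 and 264-288 (2 each, all lacking the named residues), H288R (2), Del_576-614 (3), Del_577-736 (1), Del_615-736 (1), N/C-term-swap (2), Mut_Parylation (2), Sumoylation_deficient_1 (K74R with Del_576-614, 2), Sumoylation_deficient_2 (K74R with Del_615-736, 2), Del_1-31 (2 clones, 2 libraries each), Del_13-33 (6 and 4 libraries), Y226A-F228A (2) and del_13-33-Y226A-F228A (2). Untreated cells with endogenous CTCF alone were the WT parental line (3), CTCF-Delta(13-33) clones (3 and 4), CTCF-AID, Tir1 cells (4) and CTCF(Del_13-33)-AID, Tir1 clones (4 and 4). Each line is 1 clone, so a mutation and the clone that carries it cannot be told apart where 1 line was made. The paper reports that insulation rose with expression of the full-length transgene and that expression differed between lines. It describes the full-length transgene as expressed at a fraction of endogenous CTCF-AID, and Del_577-736 at a very low level. No expression values entered the comparisons below, so the part of transgene level in them was not tested. The first Del_576-614 library carries the mutation label of another line and was placed by its line name. The study describes its experiments as replicated biologically, but the labels do not tie libraries to cultures, so p-values measure the spread between these libraries.

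CTCF is a zinc finger protein that binds DNA in a direction set by its motif. Cohesin is thought to extrude chromatin loops until it meets CTCF whose motif points into the loop, which sets the edges of domains and lowers contacts across them. Of the genes here, Cox7b encodes a subunit of cytochrome c oxidase, Atp7a a copper transporter, Magt1 a magnesium transporter and Atrx a chromatin remodeler.

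In the mm9 annotation Cox7b (ENSMUSG00000031231, chrX:103211039-103217789) starts just below the bin and Atp7a (ENSMUSG00000033792, chrX:103222615-103320265) starts inside it, both on the forward strand. Atp7a filled the flank above, where 30 of the 31 measured fragments lay in the gene. Of the 25 fragments below, 8 lay in Magt1 (chrX:103163423-103207245, reverse strand), 2 in Atrx (chrX:102992954-103124736, reverse strand) and 15 between genes. The authors' list of FLAG-CTCF peaks, called in full-length cells after 2 days of auxin and dox, held 3 peaks in the flank below, 3 in the bin and 0 in the flank above. The next peak above lay 135 kb past the bin.

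The 4 peaks closest to or within the bin are shown. All crossing contacts span the 3 peaks in the bin, while the peak on the Magt1 side lies in a fragment of the crossing pairs. Each is 200 bases of the mm9 forward strand, with the match to the 12-base core of the CTCF motif in capitals, or to a form of it without the first base (11 bases) where the longer one was absent.
Magt1 side, chrX:103208673-103208872, between Magt1 and Cox7b: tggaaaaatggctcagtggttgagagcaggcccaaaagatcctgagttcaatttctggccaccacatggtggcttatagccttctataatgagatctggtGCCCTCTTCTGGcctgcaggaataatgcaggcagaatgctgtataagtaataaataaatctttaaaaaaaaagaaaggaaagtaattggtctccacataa
Cox7b intron, chrX:103214234-103214433: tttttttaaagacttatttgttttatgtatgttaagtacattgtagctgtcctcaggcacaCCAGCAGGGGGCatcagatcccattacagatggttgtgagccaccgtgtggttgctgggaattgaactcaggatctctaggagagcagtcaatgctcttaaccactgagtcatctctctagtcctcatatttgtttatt
first peak before Atp7a, chrX:103221845-103222044: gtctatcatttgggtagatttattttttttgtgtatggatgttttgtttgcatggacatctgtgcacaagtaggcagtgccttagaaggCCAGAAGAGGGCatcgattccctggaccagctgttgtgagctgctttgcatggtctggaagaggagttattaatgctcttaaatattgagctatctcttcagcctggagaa
second peak before Atp7a, chrX:103222346-103222545: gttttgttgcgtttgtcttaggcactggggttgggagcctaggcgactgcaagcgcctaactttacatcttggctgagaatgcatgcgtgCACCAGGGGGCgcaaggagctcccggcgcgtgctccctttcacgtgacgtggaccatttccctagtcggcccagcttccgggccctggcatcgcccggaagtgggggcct
The match in the peak on the Magt1 side was on the reverse strand, and those in the 3 peaks of the bin were on the forward strand. The 2 peaks farther below, in an Atrx intron at chrX:103116871-103117070 and between genes at chrX:103152341-103152540, also had it on the forward strand. Searched on both strands, the 12-base core was found in 5 of these 6 peaks, in 43.3% of the 1128 peaks of the X chromosome and in 0.700% of its 810314 adjoining windows of 200 bases. The shortened core, which overlaps it, was found in 6 of 6 peaks, 51.7% of X peaks and 3.01% of windows. The peak on the Magt1 side lay in a measured fragment, chrX:103207830-103209914, and was the only peak in a fragment of the measured crossing pairs.

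Total counts ran from 3631870 to 23419010 per library over the 82 libraries with a complete count matrix, and the crossing pairs held 10842 to 72887 of them. For an unweighted sum at the lowest of these counts, counting error was 0.0139 on the log2 scale, against an SD of 0.07 between full-length scores. The correction weights counts unequally, so this is not an upper limit for a crossing score. Libraries with incomplete counts were not covered. The library numbers fell into 6 runs, taken from gaps in the numbering, not from a stated batch. In each of the 9 lines with libraries in both runs 4 and 5, the crossing score was lower in run 5, by a median of 0.11 (log2), and the median member count was 37337 in run 4 and 20235 in run 5. The lines were spread unevenly over the runs, and within-run values are given for the differences that passed.

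Contacts across the boundary were depleted in every library. The paper took its boundaries as insulation minima of untreated CTCF-AID cells in earlier 5C libraries and dropped minima that remained after CTCF degradation. Depletion with CTCF, and less of it without CTCF, were thus part of how the bin was chosen and are not independent findings here. In full-length cells the corrected value averaged 7.86 ± 1.01 per 1000000 forward-reverse contacts for each pair (SD, n = 14). The crossing score, the log2 of the summed value over the sum expected at the same separations in the same library, was -0.61 ± 0.07 (SD, n = 14), which is 65.5% of the expected contact. The full-length libraries ran from -0.78 through a median of -0.59 to -0.52. The lowest was a run 5 library and the next lowest was -0.70. Pairs within the flank below, in contrast, scored 0.29 ± 0.04 and pairs within the flank above -0.21 ± 0.08 in the same libraries. Of the crossing pairs, 44 exceeded the expectation.

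Without induction of the transgene the depletion was smaller but did not vanish, at a bin chosen for a minimum not kept without CTCF. The 2 no dox libraries scored -0.36 and -0.33, above all 14 full-length libraries, and averaged 78.8% of the expected contact. The difference of 0.27 ± 0.02 (SE) passed the test (exact permutation test, two-sided, p = 0.00833, the smallest that 2 against 14 libraries allow; adjusted p = 0.0236 over 17 comparisons). Within the shared run it was 0.28 (exact permutation p = 0.0476, the smallest that 2 against 5 libraries allow, adjusted p = 0.162). Of the full-length libraries in that run, those numbered nearest no dox scored -0.54 and -0.61, and the others -0.63 to -0.70. The line of low full-length expression scored -0.44 and -0.47, between no dox and full-length, and its difference of 0.15 ± 0.02 passed as well (exact permutation p = 0.0167, adjusted p = 0.0354), but not without any one of 4 of the full-length libraries (adjusted p = 0.0607 in each). Within its run the difference was 0.17 (exact permutation p = 0.0476, again the smallest possible, adjusted p = 0.162). Without the division by the expectation, the value per pair, as a geometric mean over libraries, was 1.22 times that of full-length in no dox and 1.081 times in the low line. Neither passed on that scale (exact permutation adjusted p = 0.472 and 0.803).

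**Figure D1:**
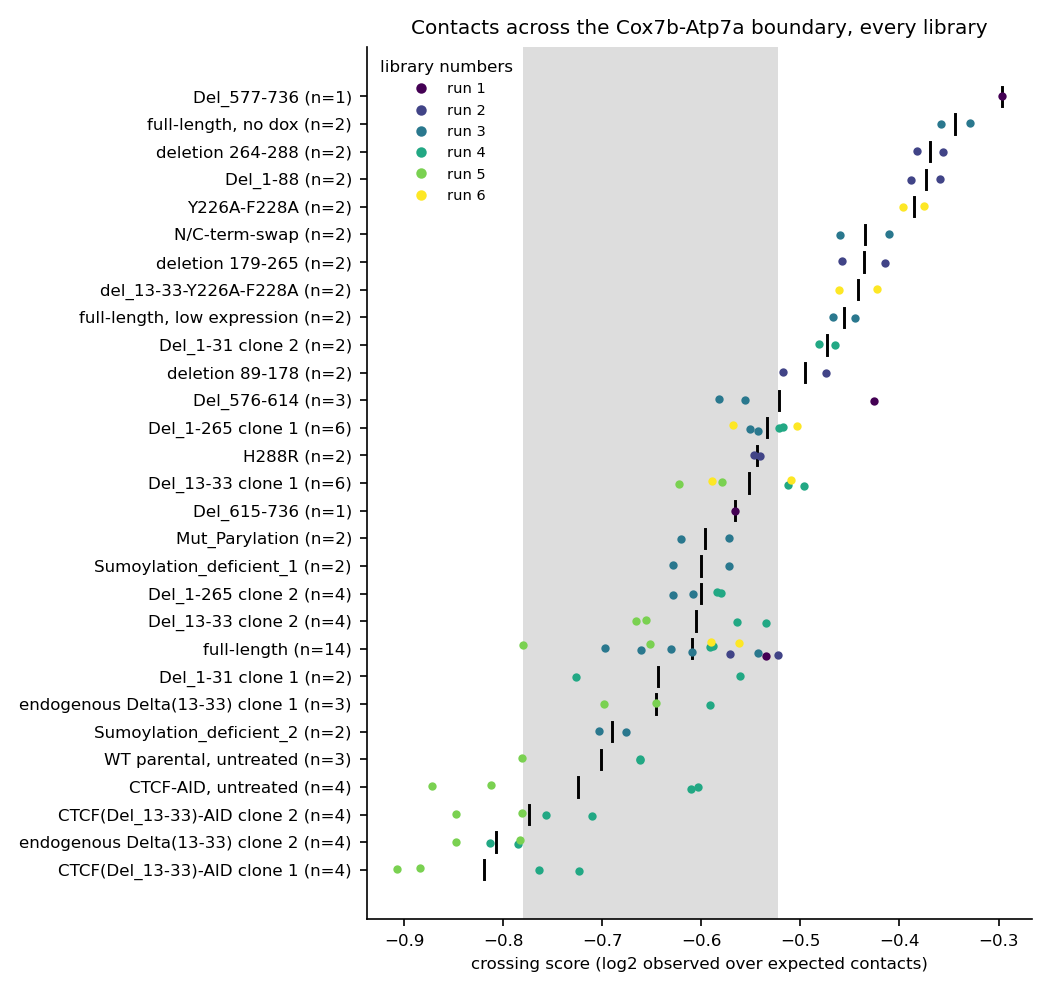
Crossing score of every library (x axis, log2 observed over expected) by line (y axis, ordered by mean), coloured by run of library numbers, with black bars for means and grey for the full-length range. The no dox, 264-288, Del_1-88 and Y226A-F228A libraries lie above the full-length range, and the Del_1-265 libraries lie in or beside it.

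The means of the 4 deletions made in run 2, which cover most of the N terminus in pieces, lay between those of no dox and full-length. Del_1-88, which removes the first residues of CTCF, scored -0.39 and -0.36, and its difference from full-length was 0.24 ± 0.02. The 264-288 deletion, which reaches into the first zinc finger, scored -0.36 and -0.38, a difference of 0.24 ± 0.02. The 179-265 deletion scored -0.41 and -0.46, a difference of 0.17 ± 0.03. All 3 passed (exact permutation p = 0.00833 and adjusted p = 0.0236 for each). The 89-178 deletion scored -0.47 and -0.52, above all full-length libraries, but its difference of 0.11 ± 0.03 did not pass after adjustment (exact permutation p = 0.0417, adjusted p = 0.0787). All 4 lines came from run 2, in which the 2 full-length libraries scored -0.52 and -0.57. Within that run their differences shrank to 0.17, 0.18, 0.11 and 0.05 in the order given, with p = 0.333 in each exact permutation test, the smallest that 2 against 2 allows.

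The Y226A-F228A substitutions change residues of the N terminus that contact cohesin. Its libraries scored -0.40 and -0.38, above all full-length libraries, and the difference of 0.22 ± 0.02 passed (exact permutation p = 0.00833, adjusted p = 0.0236). This was 84.2% of the difference made by leaving out dox. With Del_13-33 added to the substitutions, the libraries scored -0.46 and -0.42, a difference of 0.17 ± 0.03 (exact permutation p = 0.0167, adjusted p = 0.0354). N/C-term-swap, in which the termini of CTCF trade places, scored -0.46 and -0.41, a difference of 0.17 ± 0.03 (exact permutation p = 0.00833, adjusted p = 0.0236). Within runs the differences were 0.19 for Y226A-F228A and 0.13 for del_13-33-Y226A-F228A (exact permutation p = 0.333 for each, the smallest possible) and 0.19 for N/C-term-swap (exact permutation p = 0.0476, adjusted p = 0.162).

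Del_1-265, which lacks nearly the whole N terminus including the residues changed in Y226A-F228A, had a crossing score close to full-length. Clone 1 ran from -0.57 to -0.50 and clone 2 from -0.63 to -0.58. The mean of both was -0.56 ± 0.04 (SD, n = 10), and 3 of the 10 libraries exceeded all full-length libraries. The difference of 0.05 ± 0.02 did not pass (permutation test, two-sided, p = 0.0582, adjusted p = 0.099), and it was 18.4% of the no dox difference. Within the 3 shared runs it was 0.04 (permutation p = 0.0437, adjusted p = 0.162). With flanks of 50 kb in place of 100 kb it was 0.13 and passed (permutation adjusted p = 0.00425). Del_1-265 scored 0.22 below no dox, with all 10 libraries under both no dox libraries (exact permutation p = 0.0152, adjusted p = 0.0227 over 3 comparisons). Within the shared run the difference was -0.24 (exact permutation p = 0.0667, the smallest possible, adjusted p = 0.2). Y226A-F228A scored 0.17 ± 0.02 above Del_1-265, with no overlap (exact permutation p = 0.0152, adjusted p = 0.0227). These lines share run 6, where Y226A-F228A exceeded Del_1-265 clone 1 by 0.15 (exact permutation p = 0.333 with 2 against 2). Of the 17 comparisons with full-length, 8 passed, all with more contact than full-length, and 16 of the 17 means were higher. None of the 8 passed without the distance expectation, on uncorrected counts or within runs after adjustment, although none changed direction there. On counts no dox has 1 library and could not pass. Within runs none of the 8 could have passed after adjustment. The lines compared as 2 against 2 could not, and no dox, low expression and N/C-term-swap already had the smallest p that 2 against 5 libraries allow.

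The remaining transgenes did not pass the test against full-length, which does not show that they were equal to it. Del_13-33 scored -0.57 ± 0.06 (SD, n = 10), 0.04 above full-length (permutation p = 0.201, adjusted p = 0.263) and 0.06 above it within runs (permutation p = 0.0141, adjusted p = 0.162), and differed from Del_1-265 by -0.01 ± 0.02 (permutation p = 0.594, adjusted p = 0.594). The Del_1-31 clones stood apart, clone 1 at -0.73 and -0.56 and clone 2 at -0.46 and -0.48. H288R, in the first zinc finger, scored -0.54 and -0.55, Mut_Parylation -0.62 and -0.57, and Sumoylation_deficient_1 -0.57 and -0.63. Sumoylation_deficient_2 scored -0.68 and -0.70, the only one of the 17 comparisons with a mean below full-length (difference -0.08 ± 0.02, exact permutation p = 0.125, adjusted p = 0.177). Del_576-614 scored -0.43, -0.56 and -0.58, the first of these being the library whose label disagrees with its line. The single library of Del_577-736, a clone whose expression the paper calls very low, scored -0.30, the highest of all 91. The single library of Del_615-736 scored -0.57. With 1 library neither has a test. In the order of the 29 groups by mean score, 25 of the 28 neighbouring groups had overlapping libraries.

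The 5 lowest group means all belonged to untreated cells with endogenous CTCF. WT parental libraries scored -0.66, -0.66 and -0.78, and CTCF-AID, Tir1 libraries -0.61, -0.60, -0.87 and -0.81. The pair near -0.6 came from run 4 and the other pair from run 5. CTCF-AID, Tir1 cells were 0.11 below the full-length transgene (-0.11 ± 0.07, exact permutation p = 0.0281, adjusted p = 0.112 over 4 comparisons), and differed from WT parental cells by -0.02 (exact permutation p = 0.857, adjusted p = 0.857). Within runs these differences were -0.07 (exact permutation adjusted p = 0.111) and 0.0085, the latter with its direction turned. Cells lacking residues 13-33 of endogenous CTCF differed by -0.04 ± 0.05 in the untagged background (exact permutation p = 0.600, adjusted p = 0.800). Their 2 clones lay on opposite sides of WT, clone 1 at -0.59, -0.70 and -0.65 and clone 2 at -0.78, -0.81, -0.85 and -0.78, and leaving out 1 library moved the difference between -0.076 and -0.016. In CTCF-AID cells the difference was -0.07 ± 0.07 (exact permutation p = 0.248, adjusted p = 0.497), between -0.12 and -0.032 with 1 library left out. Within runs the latter was also -0.07 (exact permutation p = 0.0356, adjusted p = 0.111). The effect in the untagged background minus that in CTCF-AID cells was 0.036. It did not pass a permutation within each background (p = 0.679), which does not show that the effects were equal.

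The other 5 boundaries of the region were measured the same way, and this boundary was set against their mean. In full-length cells their mean score was -0.52 ± 0.04 (SD, n = 14), from 0.16 at the weakest to -1.24 at the strongest. The Del_1-265 mean exceeded full-length by 0.16 there against 0.05 here, and the gap of -0.11 ± 0.02 (SE) passed the test (permutation p = 8.0e-05, adjusted p = 0.000320 over 4 comparisons). Boundary by boundary the Del_1-265 difference was 0.13, 0.13, 0.27, -0.07 and 0.33, so it was below 0 at 1 of them and the 0.05 here lay within their range. Y226A-F228A was also below full-length at that boundary (-0.07) and above it at the rest. For no dox the difference here was 0.27 and elsewhere 0.24, and for Y226A-F228A 0.22 and 0.27. For CTCF-AID, Tir1 cells it was -0.11 and -0.16. None of these 3 gaps passed (exact permutation adjusted p = 0.583, 0.489 and 0.489).

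**Figure D2:**
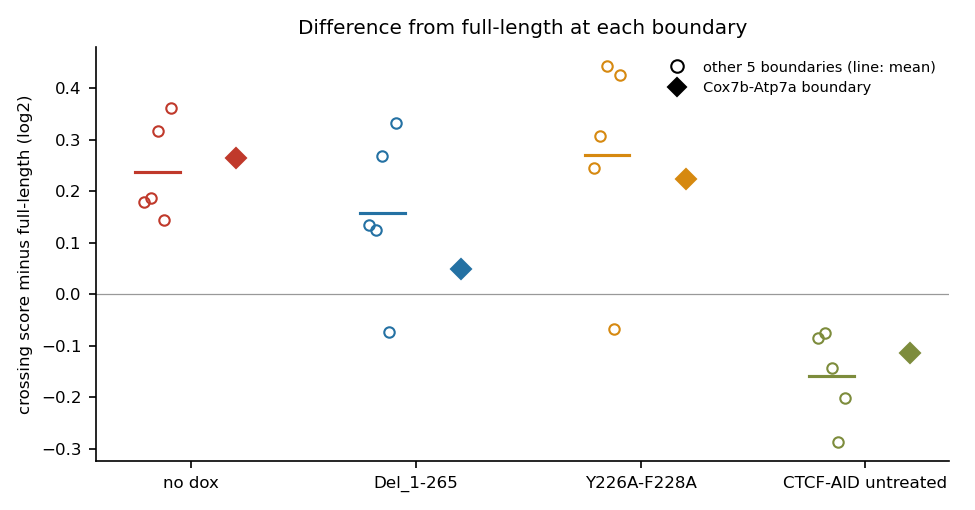
Difference in crossing score from full-length (y axis, log2) at the Cox7b-Atp7a boundary (filled diamond) and at the other 5 boundaries (open circles, line for their mean) in no dox, Del_1-265, Y226A-F228A and untreated CTCF-AID libraries. The diamond lies below the line for Del_1-265 (0.05 against 0.16) and near it for no dox (0.27 against 0.24).

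The depletion grew with separation. In full-length libraries the score was -0.33 ± 0.09 for the 44 pairs under 80 kb apart, -0.63 ± 0.08 for the 54.5% of pairs between 80 and 140 kb, and -0.79 ± 0.08 for the 34.2% beyond 140 kb (SD, n = 14). No dox libraries scored 0.01, -0.38 and -0.57 in these classes, so the nearest pairs reached the expectation. Y226A-F228A gave 0.01, -0.44 and -0.63. Del_1-265 gave -0.20, -0.59 and -0.82, above full-length for the nearest pairs and below it for the farthest. These classes are described without a test.

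**Figure D3:**
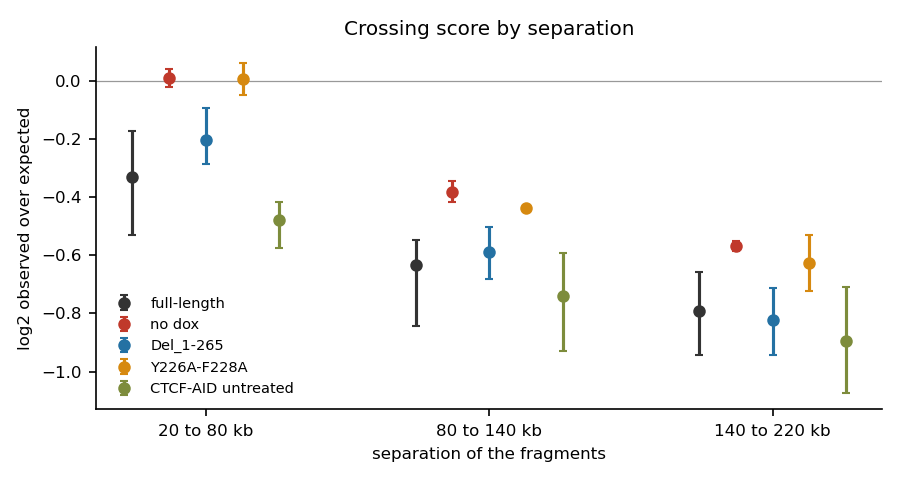
Crossing score (y axis, log2 observed over expected) by separation of the fragments (x axis, 3 classes), with points for group means and bars from the lowest to the highest library. No dox and Y226A-F228A lie near 0 under 80 kb, where full-length averages -0.33.

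Fragments differed widely among themselves. Towards the flank above, the 25 fragments below scored from -2.09 to 0.16 in full-length cells (median -0.97), and 24 of them fell below the expectation. Towards the flank below, the 31 fragments above scored from -1.42 to 0.24 (median -0.67), and 30 fell below it. The 8 Magt1 fragments scored -0.43 as a group over 125 pairs, the 2 Atrx fragments -0.36 over 31 pairs and the intergenic fragments -0.78 over 233 pairs. Pairs with the forward primer below scored -1.05 and those with the reverse primer below -0.38, so the spread between fragments moved with the kind of primer, whose part in it was not tested. No dox exceeded full-length in 24 of 25 fragments below and 28 of 31 above. Y226A-F228A did so in 21 and 26, and Del_1-265 in 13 and 21.

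**Figure D4:**
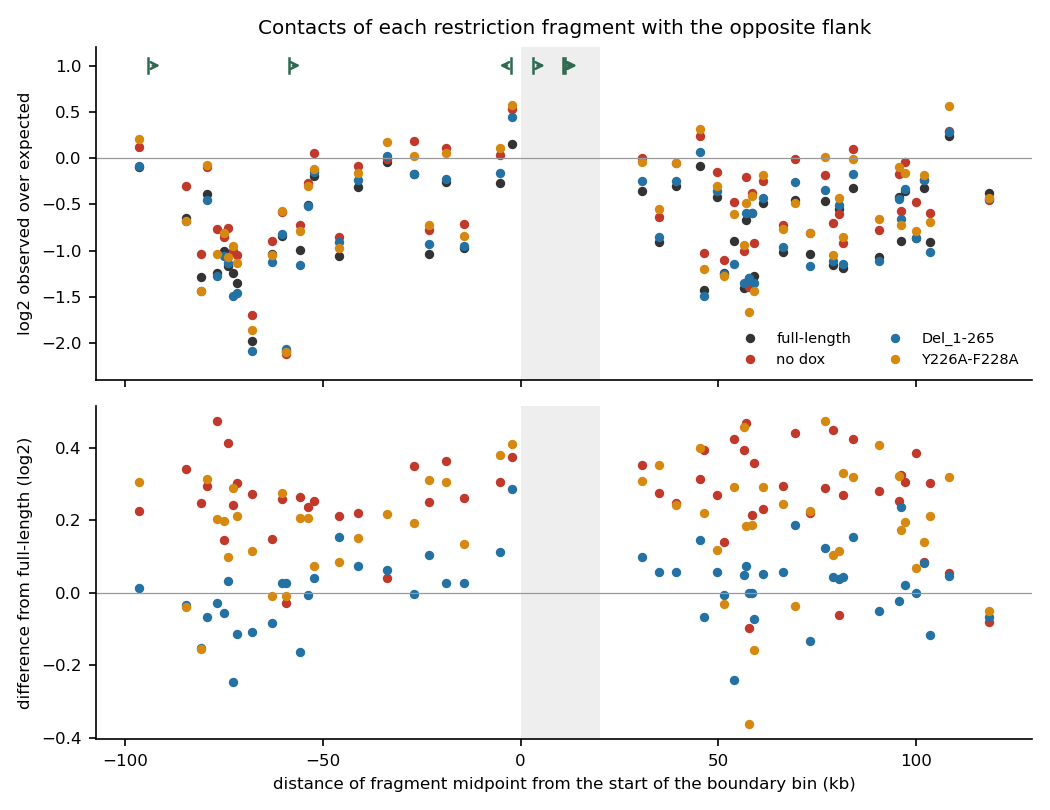
Score of each measured fragment towards the opposite flank (upper panel, log2 observed over expected) and its difference from full-length (lower panel) by distance from the start of the bin (x axis, kb), with the bin in grey and arrows for FLAG-CTCF peaks and the strand of their motif. The fragment just below the bin, which holds the peak on the reverse strand, lies highest among the fragments below, and it has the largest Del_1-265 difference.

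The fragment with the peak on the Magt1 side had the most contacts with Atp7a. Its 16 pairs averaged 20.8 ± 1.54 per 1000000 in full-length cells and scored 0.16 ± 0.11 (SD, n = 14), against -0.68 ± 0.09 for the other 373 pairs. All 16 have the reverse primer below, whereas the others include the forward-below pairs at -1.05, and reverse-below pairs as a whole scored -0.38. The full-length libraries ran from -0.07 through 0.15 to 0.32 for the fragment. No dox libraries scored 0.54 and 0.53, and Y226A-F228A libraries 0.60 and 0.54, above all full-length libraries in both cases. Del_1-265 libraries ran from 0.30 through 0.46 to 0.60, with a mean of 0.45 ± 0.10 (SD, n = 10), whereas their other pairs averaged -0.67 ± 0.04, next to the full-length value. The difference between Del_1-265 and full-length was thus 0.29 for the fragment and 0.01 for the other pairs, and the gap of 0.27 ± 0.05 (SE) passed the test (permutation p = 0.00021, adjusted p = 0.00084 over 4 comparisons). The split by peak was chosen after seeing the data, since no pair had peaks at both ends. All reverse-below pairs together were 0.07 higher in Del_1-265 than in full-length. The fragment is also the measured one nearest the bin on its side, at 2.28 kb. Over all crossing pairs the Del_1-265 difference was 0.13 under 80 kb of separation, 0.04 between 80 and 140 kb and -0.03 beyond. The class under 80 kb includes pairs of the peak fragment itself, so its 0.13 and the fragment's 0.29 share pairs. The part of nearness in the gap was not tested. On uncorrected counts the gap fell to 0.05 and did not pass (permutation adjusted p = 0.813). For no dox the fragment gained 0.37 and the rest 0.25, and for Y226A-F228A 0.41 and 0.20. Neither gap passed (exact permutation adjusted p = 0.433 and 0.25).

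**Figure D5:**
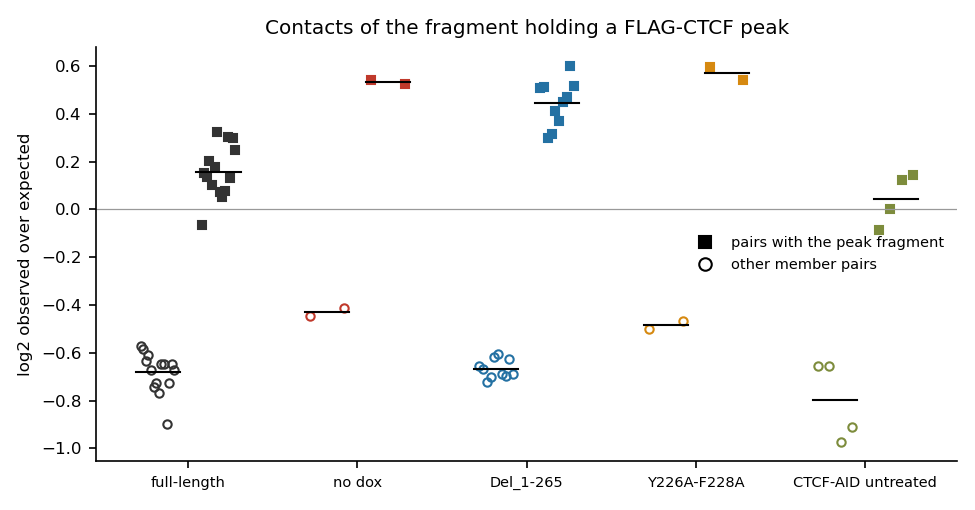
Log2 observed over expected contacts (y axis) of the 16 pairs with the fragment holding the peak on the Magt1 side (filled squares) and of the other 373 pairs (open circles), 1 point per library with bars for means. Del_1-265 lies near no dox for the squares (0.45 and 0.53) and near full-length for the circles (-0.67 and -0.68).

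The same fragment took part in 4 of the 5 pairs with the highest corrected value. All 5 were 33.0 to 51.9 kb apart, against a median of 126 kb over the crossing pairs. Corrected values fell with separation, from 15.6 per 1000000 in full-length under 80 kb to 5.42 beyond 140 kb. The 4 pairs of the fragment were at 1.02 to 1.31 times the expectation, and the fifth pair at 0.769. The highest pair joined the peak fragment to an Atp7a intron fragment at chrX:103240297-103243366. Its full-length libraries ran from 24.3 through 33.9 to 43.6 per 1000000, no dox gave 45.1 and 54.4, and Y226A-F228A 45.3 and 51.2. Del_1-265 ran from 33.1 through 43.0 to 83.2. No dox and Y226A-F228A, with 2 libraries each, thus lay above all full-length libraries for this pair, while the 10 of Del_1-265 overlapped them. None of these differences passed (limma adjusted p = 0.785 for no dox, 0.367 for Y226A-F228A and 0.0545 for Del_1-265). The next 3 joined the fragment to Atp7a at chrX:103256257-103256847 (33.0 per 1000000 in full-length), chrX:103249255-103251484 (31.0) and chrX:103259044-103262592 (25.7). The fifth joined a Magt1 intron fragment at chrX:103205015-103206684 to chrX:103240297-103243366 (25.2). Relative to the expectation, 4 of the 5 highest pairs joined one fragment at the end of Atp7a, chrX:103316677-103322629, to the peak fragment (1.80 times the expectation), to Magt1 at chrX:103182303-103186187 (1.47) and chrX:103174134-103180424 (1.43), and to the intergenic fragment chrX:103158465-103159316 (1.43). The remaining one joined chrX:103130777-103132819 to the Atp7a intron at chrX:103256257-103256847 (1.39). These are values of full-length means. In no dox the pair of the peak fragment and the end of Atp7a was at 18.2 and 27.8 per 1000000, within its full-length range of 14.6 to 28.4.

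Single pairs were rarely resolved. In limma fits over 88897 pairs with a mean of at least 1 per 1000000, all but 1 of the crossing pairs could be tested. Without dox 0 of them were called, where the background was 0.036% of all pairs tested. For Del_1-265 1 was called (background 0.88%), for Y226A-F228A 0 (background 0.314%) and for CTCF-AID, Tir1 0 (background 0.0045%). At an unadjusted limma p under 0.05 the counts were 19, 28, 27 and 25, or 4.90%, 7.22%, 6.96% and 6.44% of the crossing pairs, below the 5.61%, 11.7%, 9.64% and 6.57% of all pairs. By edgeR on counts 0 were called in each comparison. DESeq2 called 0, 0, 3 and 1, where it called 0.0124%, 0.411%, 3.72% and 0.185% of all pairs. The called pair joined the intergenic fragment chrX:103129601-103130777 to Atp7a at chrX:103281788-103287149. Its full-length libraries ran from 2.48 through 3.93 to 6.85 per 1000000 and those of Del_1-265 from 0 through 2.04 to 7.16, so they overlapped (log2 difference -1.01 ± 0.24 SE, limma adjusted p = 0.0228). The median log2 difference from full-length was 0.29 in no dox, against 0.07 over all pairs tested, with 75.3% of the pairs higher against 56.2% of all. It was 0.08 in Y226A-F228A against -0.05 over all, -0.08 in Del_1-265 against -0.07, and -0.11 in CTCF-AID, Tir1 against -0.05.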

How the data were processed

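Per the file headers and the methods, the authors deposited for each 5C library a matrix of raw counts per forward-reverse primer pair and a matrix of corrected signal, the counts after iterative correction at fragment level, in mm9 coordinates. Of the 91 count matrices, 9 were incomplete and were left out where counts were used. The submitters' processing notes name Bowtie2, SAMtools, mm9 and mm10, without versions. The deposited FLAG-CTCF peaks are intervals with no score.

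Each corrected matrix was scaled to a sum of 1000000 over forward-reverse pairs. The expectation was the mean over all pairs of a library in the same 10 kb class of separation. Crossing scores were compared by two-sided exact permutation tests of the mean difference over libraries (100000 resamples where both groups held 10 or more), with Benjamini-Hochberg adjustment within each family. Pairs were fitted with limma 3.58.1 on log2(value + 1), in pairs with a mean of at least 1 per 1000000, and with edgeR 4.0.16 and DESeq2 1.42.0 on counts (R 4.3.3, Python 3.11.15, NumPy 2.4.6). On simulated data the limma fit recovered 43% of changes of 2 log2 units for no dox and 94% for Del_1-265 among 88897 pairs. For changes of 1 log2 unit it recovered 10% and 45%. Replicate numbers did not pair libraries (same-number correlations -0.13 to 0.18), and no libraries of a line were duplicates (at most 6.6% equal counts). Named pairs were the 5 with the highest full-length value and the 5 with the highest ratio to the expectation. The members and lists were chosen with earlier results of these data known.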

Additional observations from a re-analysis of the deposited data

How the results depend on the processing

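The 10 crossing differences that passed kept their direction in all 232 alternatives run on them, but not their calls. Without the distance expectation the 8 against full-length no longer passed, at 0.28 for no dox, 0.11 for low expression, 0.22 for Del_1-88, 0.30 for 179-265, 0.27 for 264-288, 0.086 for N/C-term-swap, 0.13 for Y226A-F228A and 0.094 for del_13-33-Y226A-F228A, and Del_1-265 (-0.0062), Del_1-31 (-0.0067) and Del_13-33 (-0.086) changed sign. On raw counts the same 8 stood at 0.17, 0.13, 0.26, 0.15, 0.23, 0.12, 0.20 and 0.058 and did not pass, nor did Del_1-265 against no dox (-0.19), while Del_1-265 against full-length (-0.029) and Del_13-33 against Del_1-265 (0.069) changed sign. After an iterative correction of the counts made here, no dox (0.25) and Del_1-265 against no dox (-0.20) did not pass. With complete counts for only 1 no dox library, neither they nor the no dox comparisons on raw counts could pass. Counts could not be used for Mut_Parylation and both sumoylation lines. With 50 kb flanks Del_1-265 (0.13) and Del_576-614 (0.16) passed, Del_1-88 (0.17) did not, and CTCF(Del_13-33)-AID against CTCF-AID changed sign (0.014). With a 20 kb insulation score low expression (0.14), 179-265 (0.19), N/C-term-swap (0.18) and del_13-33-Y226A-F228A (0.17) did not pass and Sumoylation_deficient_1 changed sign (-0.015). The cause was not tested.

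Subtracting the score of pairs within the flanks, a choice made after seeing the data, brought 8 more past the threshold: Del_1-265 (0.072), 89-178 (0.14), H288R (0.089), Del_576-614 (0.099), Sumoylation_deficient_2 (-0.13), Del_1-31 (0.096), Del_13-33 (0.11) and CTCF-AID against full-length (-0.15). Mut_Parylation (-0.042), Sumoylation_deficient_1 (-0.042) and Del_13-33 against Del_1-265 (0.041) changed sign.

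Within runs few libraries can be exchanged, and no crossing difference passed. The 10 that passed in the main test could not have passed here: no dox 0.28, low expression 0.17, Del_1-88 0.17, 179-265 0.11, 264-288 0.18, N/C-term-swap 0.19, Y226A-F228A 0.19, del_13-33-Y226A-F228A 0.13, Del_1-265 against no dox -0.24 and Y226A-F228A against Del_1-265 0.15. Del_13-33 against Del_1-265 (0.011) and CTCF-AID against WT (0.0085) changed sign. With a replicate block, although the numbers do not pair libraries, none passed either: no dox 0.19, low expression 0.073, Del_1-88 0.16, 179-265 0.093, 264-288 0.16, N/C-term-swap 0.094, Y226A-F228A 0.14, del_13-33-Y226A-F228A 0.087, Del_1-265 against no dox -0.24 and Y226A-F228A against Del_1-265 0.20. Under the block H288R (-0.015), Mut_Parylation (-0.067), Sumoylation_deficient_1 (-0.071), Del_1-31 (-0.029) and CTCF-AID against WT (0.026) changed sign, as did the no dox gap to the other boundaries (-0.021), and 2 pairs were called for Del_1-265 (0.814% of all pairs tested).

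The no dox gap to the other boundaries was -0.10 on raw counts. The peak fragment's gap was 0.052 for Del_1-265 and -0.057 for CTCF-AID on raw counts, and -0.027 for CTCF-AID within runs. No pair had a peak at both ends, so the planned comparison of such pairs could not be made. Pairs called for Del_1-265 numbered 0 with no filter (0.183% of all pairs called), 3 with the run as a term (1.06%), 0 by edgeR (0.224%) and 0 by DESeq2 (0.411%). DESeq2 called 3 for Y226A-F228A (3.72% of all pairs) and 1 for CTCF-AID (0.185%).

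Leaving out 1 library at a time, a group left with 1 library could not pass. The ranges were 0.25 to 0.28 for no dox, 0.14 to 0.16 for low expression, 0.22 to 0.25 for Del_1-88, 0.15 to 0.19 for 179-265, 0.23 to 0.25 for 264-288, 0.15 to 0.20 for N/C-term-swap, 0.21 to 0.23 for Y226A-F228A and 0.15 to 0.19 for del_13-33-Y226A-F228A. They were -0.23 to -0.20 for Del_1-265 against no dox and 0.16 to 0.19 for Y226A-F228A against Del_1-265. Low expression also lost its call without any one of 4 full-length libraries, replicates 6, 8 and 9 and the run 5 replicate 4, with values of 0.15 in each case. Sumoylation_deficient_2 ranged from -0.094 to -0.067 and passed without the run 5 full-length replicate 3 (-0.093). Small differences changed sign: Mut_Parylation ran from -0.011 to 0.038, Sumoylation_deficient_1 from -0.019 to 0.037 (-0.0039 without the run 5 full-length replicate 3) and CTCF-AID against WT from -0.063 to 0.026 (0.0062 without CTCF-AID replicate 4). The CTCF-AID peak gap ran from -0.081 to 0.095, with -0.067 without CTCF-AID replicate 4 and -0.023, -0.0048, -0.0020, -0.0017, -0.0075 and -0.0058 without full-length replicates 1, 2, 3, 5, 10 and 11. Pairs called ranged from 0 to 2 for Del_1-265 and 0 to 3 for Y226A-F228A.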
